A study of Mus musculus with 6 samples.

Results

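The collagen chains are the protein-coding genes of the deposited count table whose symbol is Col, a type number, the letter a and a chain number. This rule takes 44 of the 28262 genes in the table, of which 17451 are protein-coding. It uses names alone and no measured value. The counts come from RNA-seq of 6 libraries of Sertoli cells, the somatic cells that nurse germ cells in the seminiferous tubule. The cells came from testes of untreated 20-day-old C57BL/6 mice and were cultured. In 3 libraries the mice were Pa1F/F controls (genotype label PA1flox/flox), whose Pa1 gene carries loxP sites, and in the other 3 they were Amh-pa1-/- (label PA1-/-), which carry the same floxed gene and Cre driven by the promoter of Amh, a gene of Sertoli cells. PA1 is a protein of the histone methyltransferase complex that holds MLL3 or MLL4. Pa1 was not analysed here, and no check of the genotype was made from its reads. Cells were freed from the tubules with collagenase, hyaluronidase and trypsin, and cells outside the Sertoli lineage that came along are not deleted for Pa1. The study's methods call the samples biological replicates, and the sources used here do not say how many animals stand behind a library, so the p-values measure the spread between these libraries.

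Collagens are built from 3 chains wound into a triple helix. Fibrillar collagens form the cross-striated fibres of connective tissue, and FACIT collagens (fibril-associated collagens with interrupted triple helices) sit on the surface of such fibres. Type IV collagen forms the network of basement membranes, the thin sheets under epithelia, and the multiplexins XV and XVIII bind to these sheets. Type VI collagen forms beaded filaments next to the cell, and transmembrane collagens cross the plasma membrane. In the testis the Sertoli cells and the peritubular myoid cells around the tubule both contribute to the basement membrane, and fibrillar collagen lies in the layers outside it. The 44 chains fall into 11 fibrillar, 6 type IV, 2 multiplexin, 9 FACIT, 4 transmembrane and 6 beaded filament chains and 6 others.

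The libraries held 13203757 to 16231443 counts. Amh-pa1-/- replicate 3 stood apart from its 2 mates. Over genes, the chi-square of counts per degree of freedom was 1.68 between Amh-pa1-/- replicates 1 and 2 and 2.24 between Pa1F/F replicates 1 and 3, against 18.7 to 30.9 for the other pairs within a genotype, so that replicates 1 and 2 of Amh-pa1-/- form a close pair. Of 8 markers of peritubular myoid cells, the smooth muscle-like cells around the tubule, 7 were at least 2-fold above the mean of the other Amh-pa1-/- libraries in replicate 3. Their summed normalized count without Acta2 was 801 to 1192 in the Pa1F/F libraries, 549 and 568 in Amh-pa1-/- replicates 2 and 1 and 4009 in replicate 3. Acta2, smooth muscle actin, was higher in all 3 Amh-pa1-/- libraries (2537 to 3239 against 11886 to 15383). The summed count of 12 Sertoli markers was 237540.0 to 241749 in Pa1F/F and 140981 to 182647 in Amh-pa1-/-, mostly from Clu, while 1 of 10 tested members, Inha, fell (median log2 fold change -0.24) and Trf and Rhox5 were near 0 in every library. Here a gene fell or rose where it passed both thresholds given below, as 6.56% and 5.44% of all tested genes did. Summed markers of Leydig cells went from 11678 to 13397 down to 2423 to 4229 (3 of 3 tested members fell), with Cyp17a1 and Insl3 at or near 0 in all libraries. Those of macrophages went from 1770.4 to 1940.1 down to 1107 to 1378 (5 of 6 tested members fell). The summed fibroblast markers overlapped between the genotypes (2397 to 3147 against 2063 to 2784), while 1 of 5 tested members, Pdgfra, fell and 3, Pdgfra among them, were lower by the adjusted p alone. Summed germ cell markers overlapped as well (39.9 to 51.4 against 19.5 to 74.1, 1 of 2 tested members fell). Summed endothelial markers were lower (1707 to 1793 against 939 to 1487), with members in both directions, since of 4 tested Pecam1 fell and Vwf rose. Summed mesothelial markers were higher (343 to 433 against 728 to 857, 3 of 7 tested members rose). The part of these other cells in the collagen results was not tested. In bulk RNA, fewer cells of a type and less RNA per cell cannot be told apart.

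Collagen mRNA made up less of the Amh-pa1-/- libraries, and single chains moved in both directions. All 44 chains together took 1.20%, 1.22% and 1.25% of the counts in the Pa1F/F libraries (in the order of replicates 1, 2 and 3) against 0.704%, 0.701% and 1.13% in the Amh-pa1-/- libraries. The groups did not overlap, and Amh-pa1-/- replicate 3 lay nearest to the controls. Type IV chains took 0.457% to 0.551% of a Pa1F/F library and 0.288% to 0.363% of an Amh-pa1-/- library. The share of the multiplexins was 0.119% to 0.128% against 0.0475% to 0.0680%. The summed share of the FACIT chains was higher, from 0.0312% to 0.0350% in Pa1F/F to 0.0618% to 0.0850% in Amh-pa1-/-, but Col12a1 and Col16a1 alone held 93.5% to 96.8% of these counts and other chains of the class were lower. Fibrillar chains took 0.455% to 0.566% in Pa1F/F, 0.282% and 0.283% in Amh-pa1-/- replicates 2 and 1 and 0.539% in replicate 3, so their shares overlapped. Exact two-sided permutation tests of 3 against 3 libraries cannot go below 0.1.

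**Figure D1:**
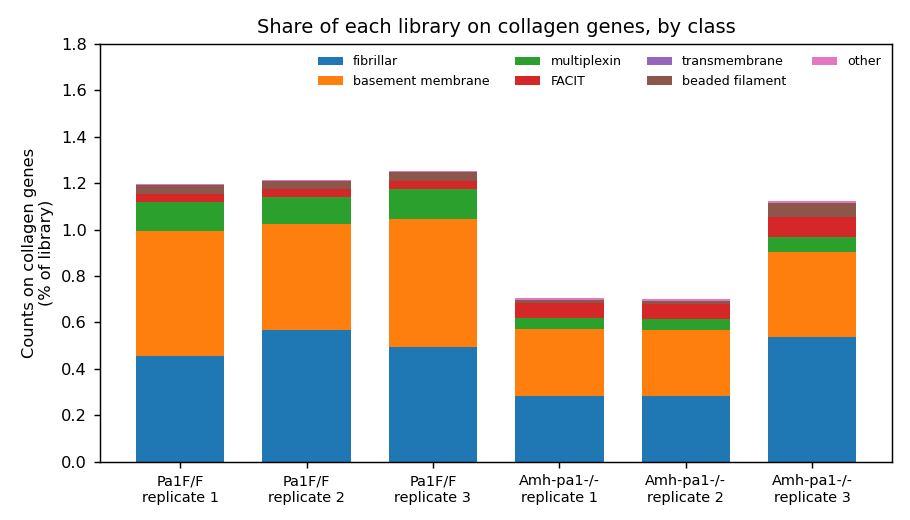
Stacked bars of the percentage of each library's counts that fell on collagen genes, by class, for 3 Pa1F/F and 3 Amh-pa1-/- libraries (vertical axis in % of the library, from 0). The Pa1F/F bars reach 1.20% to 1.25%, Amh-pa1-/- replicates 1 and 2 reach 0.704% and 0.701%, and replicate 3 reaches 1.13%.

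Of the 44 chains, 37 had enough counts to be tested. A chain was called where edgeR's adjusted p was under 0.05 and the absolute log2 fold change (Amh-pa1-/- over Pa1F/F) was at least 1. By this rule 5 chains fell and 5 rose, 10 of 37 in all (27.0%), where 12% of all 14919 tested genes were called, 6.56% lower and 5.44% higher. The 5 that fell were Col18a1, Col15a1, Col4a2, Col14a1 and Col10a1, and the 5 that rose were Col12a1, Col9a3, Col8a1, Col28a1 and Col25a1. By the adjusted p alone 21 chains passed, 14 lower and 7 higher, beside 35.3% of all tested genes (17.1% lower and 18.2% higher). The called chains Col10a1, Col14a1 and Col25a1 reached the filter on low counts in all 3 libraries of the genotype where they were higher but not of the other, so the filter favoured a difference in them. Under a filter that asked each library for 10 counts or more, these 3 were not tested, and 7 of 29 chains were called (24.1%, beside 9.53% of genes). In 22 chains (59.5%) the normalized counts of the genotypes did not overlap, as in 52.4% of all tested genes. The median log2 fold change was -0.49 over the chains and 0.00 over all tested genes. Without Amh-pa1-/- replicate 3, 17 of 38 tested chains were called (44.7%, where 13.5% of 15354 genes were), 12 lower, where 7.92% of genes were, and 5 higher. All 10 chains stayed called there, and Col3a1, Col4a1, Col4a3, Col6a1, Col6a2, Col6a3 and Col26a1 were added, all lower. Col26a1, not tested with all libraries, passed the filter on low counts there through its Pa1F/F counts alone. Over the 37 chains tested with all libraries, 16 were called without that library (43.2%, 11 lower). Of the 14 chains lower by the adjusted p alone with all libraries, 6 kept an edgeR adjusted p under 0.05 in each of the 6 fits that left out 1 library, as did 6 of the 7 higher ones. The share of all tested genes that did so was not computed, so neither direction can be set against it.

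**Figure D2:**
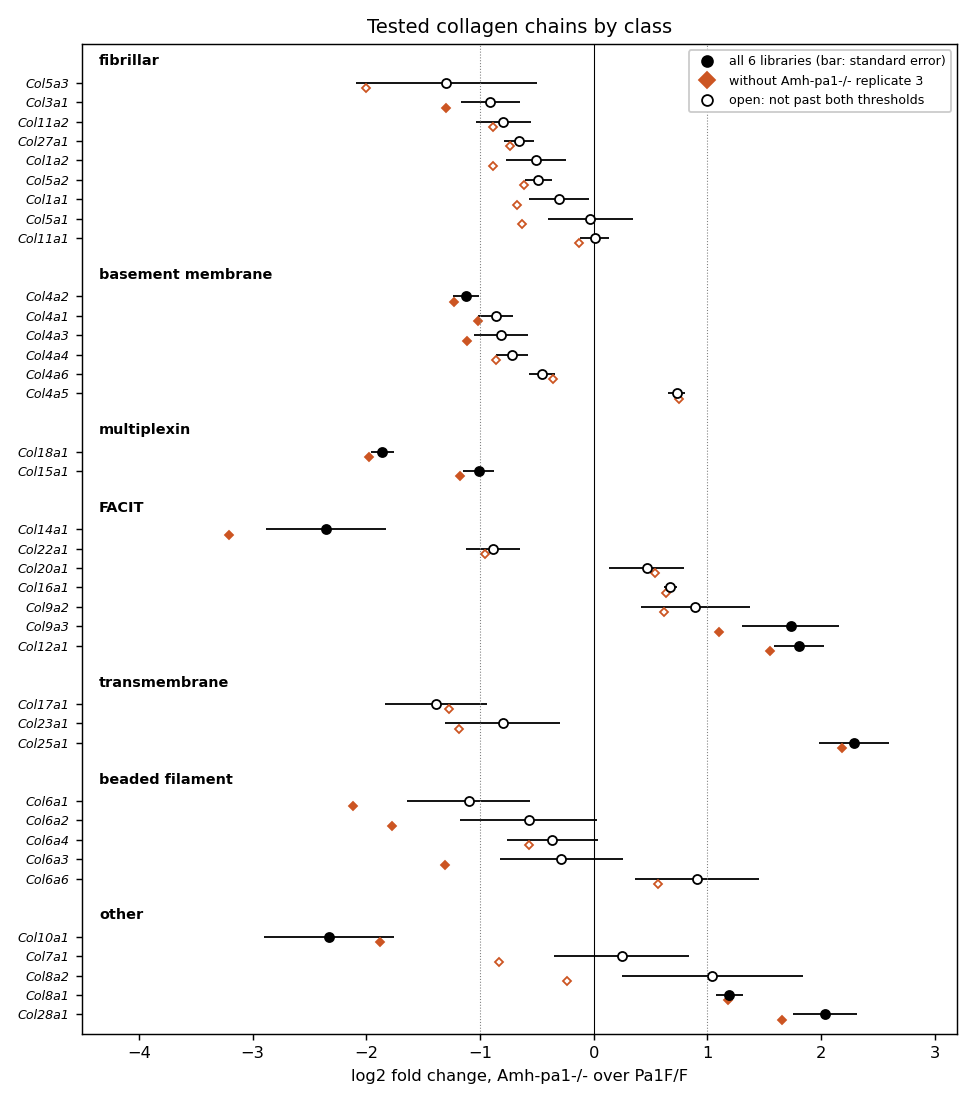
Log2 fold changes of the 37 tested chains by class (horizontal axis, Amh-pa1-/- over Pa1F/F; black circles with standard errors from all 6 libraries, orange diamonds from the fit without Amh-pa1-/- replicate 3, filled where both thresholds were passed). Col25a1 at 2.29 and Col14a1 at -2.36 are the outermost circles, and the type VI chains Col6a1, Col6a2 and Col6a3 shift to the left without replicate 3.

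Levels between chains were compared as CPM (counts scaled to library size) per kilobase of exon. By the mean of all 6 libraries, Col4a1 and Col4a2 were the most abundant chains on this scale. They stood at 329.6 ± 38.0 and 285 ± 19.6 in Pa1F/F and 181 ± 32.7 and 131 ± 16.6 in Amh-pa1-/- (SD, n = 3 each, as in all values of this kind). In Pa1F/F they were followed by Col1a1 (185 ± 27.1), Col1a2 (137 ± 18.8), Col15a1 (132 ± 6.75), Col3a1 (88.4 ± 3.55), Col5a2 (60.3 ± 4.63), Col18a1 (47.4 ± 1.81), Col4a5 (41.7 ± 3.30), Col5a1 (37.7 ± 5.93), Col16a1 (32.3 ± 0.632) and Col6a3 (19.8 ± 0.931). In Amh-pa1-/- cells the mean of Col1a1 (150.1 ± 59.3) lay between Col4a1 and Col4a2, and that of Col1a2 (96.4 ± 38.7) within 1 SD of Col4a2 by its own spread. The place of Col1a1 above Col4a2 came from replicate 3, since Col1a1 lay below Col4a2 in Amh-pa1-/- replicates 1 and 2. Col4a5 (69.3 ± 2.20) stood beside Col15a1 (65.6 ± 12.5) there, and Col16a1 (51.5 ± 2.34) above Col18a1 (13.1 ± 1.85). In Pa1F/F the neighbours Col1a2 and Col15a1, Col4a5 and Col5a1, and Col5a1 and Col16a1 differed by less than the larger SD of the pair. In the following, values are normalized counts, which are counts scaled to the mean effective library size, in the order of replicates 1, 2 and 3.

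Among the 6 type IV chains, 5 were lower and Col4a5 was higher by the adjusted p alone (17.1% and 18.2% of all tested genes), and Col4a2 fell past both thresholds. The genes of this class lie in 3 head-to-head pairs, which start next to each other and run apart. Col4a2 held 30973, 27772 and 31633 normalized counts in Pa1F/F and 12783, 12931 and 15895 in Amh-pa1-/-. All 3 Amh-pa1-/- libraries lay below all Pa1F/F libraries, and the log2 fold change was -1.12 ± 0.11 (SE, edgeR adjusted p = 0.000784). Its partner Col4a1, with which it forms the common type IV trimer, held 38143, 31376 and 38997 against 17889, 17774 and 24054. Here too the groups did not overlap, at -0.86 ± 0.15 (edgeR adjusted p = 0.0061), short of the fold threshold. Without Amh-pa1-/- replicate 3 the change was -1.02 (edgeR adjusted p = 0.000352), and with the close pairs of libraries summed it was -0.72 (edgeR adjusted p = 0.11).

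Col4a3 and Col4a4, chains of the trimer known from the glomerulus of the kidney, were both lower by the adjusted p alone. Col4a3 held 1195, 868 and 1199 normalized counts in Pa1F/F and 508, 496 and 849 in Amh-pa1-/- (log2 fold change -0.82 ± 0.24, edgeR adjusted p = 0.0354). Col4a4 held 1258, 1023 and 1282 against 621, 688 and 859 (-0.72 ± 0.14, edgeR adjusted p = 0.00919). In both chains the groups stayed apart, and in both Amh-pa1-/- replicate 3 was the highest of its genotype, with Col4a3 at -1.11 (edgeR adjusted p = 0.00122) without it. The adjusted p of Col4a4 stayed under 0.05 in all 6 fits that left out 1 library, whereas that of Col4a3 did in 2, those without Pa1F/F replicate 2 or Amh-pa1-/- replicate 3, and was 0.108 to 0.112 (edgeR) in the other 4.

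Col4a5 and Col4a6, the pair on the X chromosome, went in opposite directions. Col4a5, a partner of Col4a3 and Col4a4 that can also join with Col4a6, held 5800.3, 5249 and 6147 normalized counts in Pa1F/F and 9833, 9479.9 and 9231 in Amh-pa1-/-. All 3 Amh-pa1-/- libraries were above the controls, at 0.73 ± 0.08 on the log2 scale (edgeR adjusted p = 0.000813). Col4a6 held 1695, 1621 and 1984 against 1355, 1403 and 1112. These were all below the controls, at -0.45 ± 0.11 (edgeR adjusted p = 0.0211), with an edgeR adjusted p of 0.0502 to 0.07 without Pa1F/F replicate 1 or 3 or Amh-pa1-/- replicate 1. Neither reached the fold threshold.

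The stretches between the starts of these pairs are shown because the partners start so close to each other and their counts were compared below. They are RefSeq sequence of build GRCm38.p6, and the starts are those of the deposited table. Col4a1 (chromosome 8, minus strand, start site 11312826) and Col4a2 (plus strand, 11312805) overlap by 22 bases at chr8:11312805-11312826, so a read in these bases could come from either gene. Col4a4 (chromosome 1, minus strand, 82586849) and Col4a3 (plus strand, 82586921) leave 71 bases between them, chr1:82586850-82586920. Col4a6 (chromosome X, minus strand, 141474076) and Col4a5 (plus strand, 141475385) start 1308 bases apart, and the 231 bases at chrX:141474096-141474326 before Col4a6 (read on its minus strand) and the 201 bases at chrX:141475169-141475369 before Col4a5 are given. Both end outside the extent of the gene in RefSeq, a little short of these starts, and the RefSeq promoter window of each holds 1 GGGCGG that the printed stretch does not contain in full. Capitals mark GGGCGG, the core of a GC box, and CCAAT. No TATAAA and no TGACTCA, the AP-1 motif, occurred on either strand in these 4 stretches.
Col4a1/Col4a2 overlap: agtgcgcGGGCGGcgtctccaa
Col4a4/Col4a3 between starts: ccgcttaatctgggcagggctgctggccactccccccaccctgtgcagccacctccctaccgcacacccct
Col4a5 before start: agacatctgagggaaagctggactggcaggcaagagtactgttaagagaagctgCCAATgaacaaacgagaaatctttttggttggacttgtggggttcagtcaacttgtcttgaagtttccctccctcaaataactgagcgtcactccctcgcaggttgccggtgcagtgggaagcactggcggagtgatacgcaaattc
Col4a6 before start: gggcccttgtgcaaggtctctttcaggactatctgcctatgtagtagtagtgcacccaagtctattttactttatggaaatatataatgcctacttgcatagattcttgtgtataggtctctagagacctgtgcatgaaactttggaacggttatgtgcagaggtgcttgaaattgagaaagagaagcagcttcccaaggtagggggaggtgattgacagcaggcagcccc

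The 4 motifs were also counted on both strands in the promoter windows of RefSeq, from 250 bases before to 50 after a start. Windows were found for 35 of the 44 chains, 38 windows in all. GGGCGG was in 23 of them (60.5%), where 35.7% of 32851 windows of all genes held it. CCAAT was in 13 (34.2%, against 37.4%), TATAAA in 5 (13.2%, against 13.6%) and TGACTCA in 1 (2.63%, against 5.20%), that of Col6a1. None of the 4 motifs contains another, and a match is only a match of letters.

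Both multiplexins fell. Col18a1, whose C-terminal fragment is endostatin, held 5103, 4939.9 and 4728 normalized counts in Pa1F/F and 1272, 1225 and 1579 in Amh-pa1-/-. The groups were far apart against their spread, at -1.86 ± 0.10 (edgeR adjusted p = 0.000114), the smallest adjusted p of any chain. Over 8825 bases Col18a1 overlaps Slc19a1, a gene on the opposite strand that held 128 to 174 raw counts in the 6 libraries. The strand setting of the counting is not given, so reads of the overlap are uncertain. Col15a1, which links basement membranes to fibres, held 13479.9, 12812 and 14188 against 6087, 5838 and 8159. All Amh-pa1-/- libraries were lower, at -1.01 ± 0.14 (edgeR adjusted p = 0.00212), which lies at the fold threshold. Its adjusted p stayed under 0.05 in every fit that left out a library, while the fold threshold was missed without Pa1F/F replicate 3 (-0.97), Amh-pa1-/- replicate 1 (-0.94) or Amh-pa1-/- replicate 2 (-0.91). With the close pairs of libraries summed, Col15a1 passed neither threshold (-0.90, edgeR adjusted p = 0.0555).

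FACIT chains moved both ways, with 2 of 7 tested chains rising and 1 falling past both thresholds (5.44% and 6.56% of all tested genes). Col12a1, which binds to type I fibres and is known from tendon and other loaded tissue, held 1379, 982 and 1317 normalized counts in Pa1F/F and 3611, 3570.0 and 5683 in Amh-pa1-/-. Each Amh-pa1-/- library lay above each Pa1F/F library, and Col12a1 rose by 1.81 ± 0.22 on the log2 scale (edgeR adjusted p = 0.0015), or 1.55 (edgeR adjusted p = 0.00017) without Amh-pa1-/- replicate 3, the highest one. Col14a1, a close relative of Col12a1 that also binds fibrils, held 145, 84.2 and 148 against 17.6, 9.01 and 46.1. It fell by 2.36 ± 0.53 on the log2 scale (edgeR adjusted p = 0.0143) with no overlap, and was 3.47-fold higher in Amh-pa1-/- replicate 3 than in the mean of its mates. The call rested on the libraries used: the edgeR adjusted p was 0.0533, 0.0518 and 0.0556 without Pa1F/F replicate 1, Pa1F/F replicate 3 and Amh-pa1-/- replicate 1, with log2 fold changes of -2.24, -2.23 and -2.16, and the change was -3.20 without Amh-pa1-/- replicate 3. Thus in the same libraries Col12a1 was above and Col14a1 below the controls.

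Col9a3, a chain of type IX collagen, which coats type II fibres in cartilage, held 106, 131 and 81.8 normalized counts in Pa1F/F and 231, 224 and 605 in Amh-pa1-/-. It rose by 1.73 ± 0.43 (edgeR adjusted p = 0.0204), with 1 library, Amh-pa1-/- replicate 3, far above its mates. Without that library the change was 1.10 (edgeR adjusted p = 0.00346), while without Pa1F/F replicate 1 or 3 the edgeR adjusted p was 0.0701 or 0.076. It was 0.0585 with the replicate number as a block and 0.0898 with the close pairs of libraries summed. The end of Col9a3 overlaps Tcfl5 on the opposite strand over 234 bases, and Tcfl5 held 30 to 39 raw counts in Pa1F/F and 68 to 74 in Amh-pa1-/-, so reads of the overlap are uncertain. Its partners were near the floor: Col9a2 held 3.62 to 12.6 against 12.4 to 23.0 (0.89 ± 0.48, edgeR adjusted p = 0.192), and Col9a1 was counted once in all 6 libraries together. Col16a1, a FACIT chain found near cell surfaces and small fibres, held 3409, 3374 and 3504 against 5328, 5329.7 and 5759. It was above the controls in every library with a narrow spread, at 0.67 ± 0.06 (edgeR adjusted p = 0.000391), short of the fold threshold. Of the other tested FACIT chains, Col22a1 was lower by the adjusted p alone (-0.88 ± 0.24, edgeR adjusted p = 0.0274), with -1.03 (edgeR adjusted p = 0.0246) and both thresholds passed without Pa1F/F replicate 2. Its edgeR adjusted p was under 0.05 in 2 of the 6 fits that left out 1 library, those without Pa1F/F replicate 2 or Amh-pa1-/- replicate 3, and 0.0701 to 0.0989 in the other 4. Col20a1 overlapped between the genotypes (0.47 ± 0.33, edgeR adjusted p = 0.31).

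**Figure D3:**
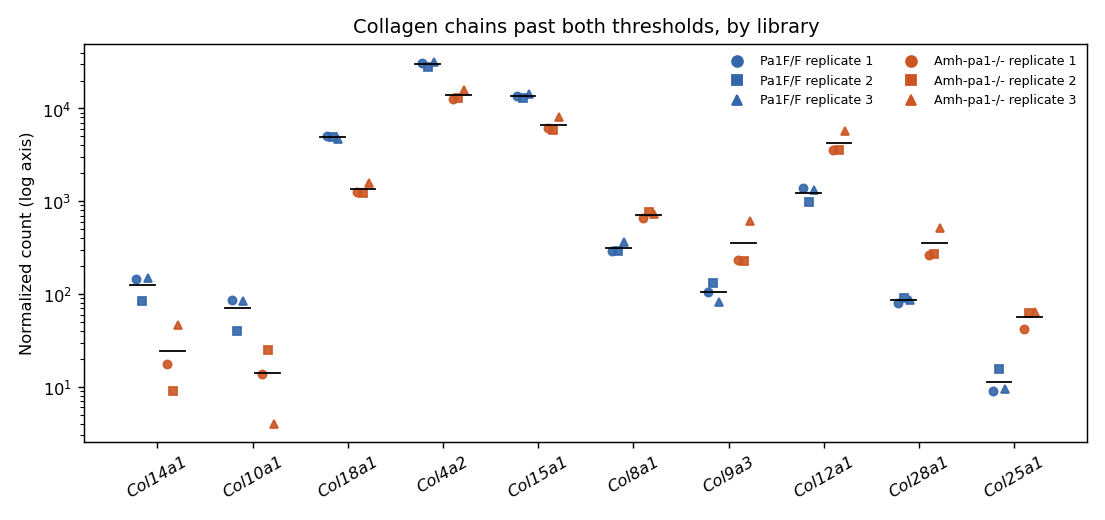
Normalized counts (log axis) of the 10 chains past both thresholds in each library, ordered by log2 fold change from Col14a1 to Col25a1, with blue for Pa1F/F, orange for Amh-pa1-/-, symbols for the replicates and bars for group means. In each chain the 3 points of a genotype lie on the same side of the other genotype's points, and Amh-pa1-/- replicate 3 (triangle) is the highest of its genotype in all but Col10a1 and Col8a1.

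No fibrillar chain passed both thresholds with all 6 libraries. Of 9 tested chains, 4 were lower by the adjusted p alone and none higher, where 17.1% and 18.2% of all tested genes were, with a median of -0.51 on the log2 scale. Col3a1, the fibril chain of soft tissue, held 12824, 13350.0 and 13898 normalized counts in Pa1F/F and 5345, 5498 and 10486 in Amh-pa1-/-. The groups did not overlap (-0.91 ± 0.26, edgeR adjusted p = 0.0333), and without Amh-pa1-/- replicate 3 the change was -1.30 (edgeR adjusted p = 1.24e-05). Without any one of the other 5 libraries the edgeR adjusted p of Col3a1 was 0.0717 to 0.102. Col5a2, a chain of type V collagen that sets fibril width, held 9049.7, 10501 and 10172 against 6466, 6443 and 8324. It lay below the controls in each library, at -0.49 ± 0.12 (edgeR adjusted p = 0.0201), but its edgeR adjusted p was 0.0554 to 0.0768 in 4 of the 6 fits that left out 1 library, passing without Pa1F/F replicate 1 or Amh-pa1-/- replicate 3. The other chains of this kind were Col27a1 (228 to 281 against 153 to 184, -0.66, edgeR adjusted p = 0.00891) and Col11a2 (33.5 to 44.5 against 17.6 to 25.0, -0.79, edgeR adjusted p = 0.0404). Col27a1 passed in all 6 of these fits, and Col11a2 in 1, without Amh-pa1-/- replicate 3 (edgeR adjusted p = 0.0699 to 0.124 in the other 5).

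The chains of type I collagen, the main fibril of connective tissue, turned on Amh-pa1-/- replicate 3. Col1a1 held 15723, 20799 and 17157 normalized counts in Pa1F/F and 11259, 11111 and 21105 in Amh-pa1-/-. Replicates 1 and 2 of Amh-pa1-/- lay below all controls and replicate 3 above them, at -0.30 ± 0.26 (edgeR adjusted p = 0.408). For Col1a2 the values were 22662, 29388 and 24361 against 13774, 13761 and 26242 (-0.51 ± 0.27, edgeR adjusted p = 0.184), with replicate 3 inside the control range. Without replicate 3 the changes were -0.68 (edgeR adjusted p = 0.00338) and -0.89 (edgeR adjusted p = 0.000896). Col5a1, the partner of Col5a2, held 4244, 5689 and 4557 against 3155, 3068 and 7968 and showed the same order (-0.03 ± 0.37, edgeR adjusted p = 0.959; -0.63 and 0.00536 without replicate 3). Without replicate 3, 7 of 9 tested fibrillar chains were lower by the adjusted p alone, as were 21.2% of all tested genes in that fit, and 1, Col3a1, also passed the fold threshold. Col5a3 was decided by a control library: 434, 2466 and 426 against 289, 262 and 802 gave -1.30 (edgeR adjusted p = 0.247), and 0.07 (edgeR adjusted p = 0.928) without Pa1F/F replicate 2. Col11a1 was level, at 1657, 1629.5 and 1954 against 1601, 1589.6 and 2078 (0.01 ± 0.13, edgeR adjusted p = 0.968).

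The type VI chains Col6a1, Col6a2 and Col6a3 differed widely between the Amh-pa1-/- libraries. Col6a1 held 1453, 1238 and 1535 normalized counts in Pa1F/F and 327, 323 and 1321 in Amh-pa1-/-. Col6a2 held 738, 729 and 739 against 208, 222 and 1053. Col6a3 held 3629, 3326 and 3590.0 against 1384, 1448 and 5829.5. Replicates 1 and 2 lay far below the controls in all 3 chains, while replicate 3 was inside the control range for Col6a1 and above it for Col6a2 and Col6a3. With all libraries none passed the test (log2 fold changes -1.10, -0.57 and -0.28, edgeR adjusted p = 0.158, 0.499 and 0.718), and without replicate 3 all 3 were called lower (-2.11, -1.77 and -1.31, edgeR adjusted p = 2.35e-05, 1.56e-05 and 1.36e-05). Replicate 3 was 4.06-, 4.90- and 4.12-fold above the mean of its mates in these chains. Among the 26 chains whose mean normalized count reached 50, 8 were at least 2-fold above the mean of the mates in replicate 3, and none was in Amh-pa1-/- replicates 1 or 2. The others were Col7a1, Col14a1, Col5a3, Col9a3 and Col5a1, from 4.34-fold for Col7a1 to 2.56-fold for Col5a1. Replicate 3 stood apart from its mates over all genes as well (chi-square per degree of freedom 30.9 and 28.9). The share of all genes at least 2-fold above the mates was not computed, so these 8 chains cannot be set against it. The muscle markers Myh11 (481 to 649 in Pa1F/F, 216, 164 and 1605 in Amh-pa1-/-) and Actg2 (124 to 183, then 66.4, 51.8 and 730.4) were likewise below the controls in Amh-pa1-/- replicates 1 and 2 and high in replicate 3, above all controls as for Col6a2 and Col6a3. Of the 8 listed markers of peritubular myoid cells, Acta2 did not share this order, since it was above all controls in all 3 Amh-pa1-/- libraries. The part of these markers in the type VI values was not tested. The remaining type VI chains Col6a4 and Col6a6 held under 100 normalized counts in each library and overlapped between the genotypes.

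**Figure D4:**
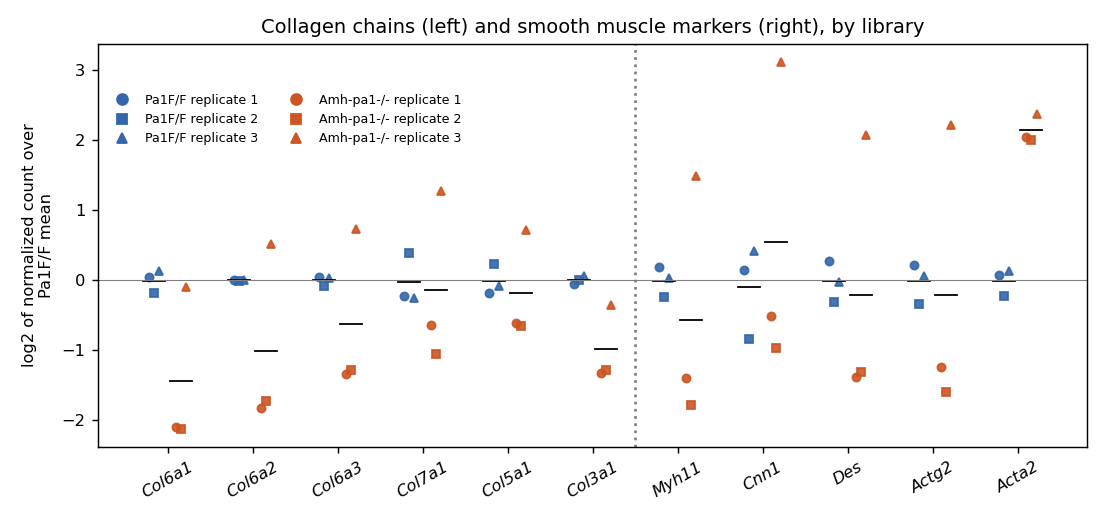
Log2 of each library's normalized count over the Pa1F/F mean for 6 chains (left of the dotted line) and 5 smooth muscle markers (right), with symbols for the replicates and bars for group means. Amh-pa1-/- replicate 3 lies above its mates in each of the 11 genes shown, while replicates 1 and 2 lie below 0 in all but Acta2.

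Of the transmembrane chains, Col25a1 rose from a low level. Col25a1, a neuronal collagen whose shed form binds amyloid, held 9.06, 15.5 and 9.44 normalized counts in Pa1F/F and 42.0, 62.0 and 64.1 in Amh-pa1-/-. All Amh-pa1-/- libraries were above all controls (2.29 ± 0.31, edgeR adjusted p = 0.00215), with the raw counts at 9 to 16 against 43 to 64. It passed the filter through its Amh-pa1-/- counts, since only 1 Pa1F/F library reached the minimum. Col17a1, a chain of hemidesmosomes, held 24.5, 51.3 and 26.2 against 19.5, 7.89 and 11.0. These groups did not overlap, but the edgeR adjusted p lay just above 0.05 and did not pass (-1.39 ± 0.45), and only the fit without Amh-pa1-/- replicate 1 among those leaving out 1 library called it (-1.82, edgeR adjusted p = 0.0434). Col23a1 overlapped (-0.80 ± 0.51, edgeR adjusted p = 0.26), and Col13a1, with 2 to 4 raw counts in Pa1F/F and 0 to 8 in Amh-pa1-/-, was not tested.

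Among the chains outside these classes, 2 rose and 1 fell, where 5.44% and 6.56% of all tested genes did. Col8a1, a short network-forming chain known from vessels and the cornea, held 289, 289 and 363 normalized counts in Pa1F/F and 656, 766 and 725 in Amh-pa1-/-. The increase of 1.19 ± 0.12 (edgeR adjusted p = 0.000722) was well above the spread of either group. Col8a2, its partner, held 10.9, 4.84 and 10.5 against 3.90, 11.3 and 39.1 and did not pass (1.04 ± 0.80, edgeR adjusted p = 0.348), with the sign turning to -0.24 without Amh-pa1-/- replicate 3. Col28a1, a chain related to type VI and known from peripheral nerve, held 79.7, 91.0 and 86.0 against 266, 273 and 516. It rose in each Amh-pa1-/- library, by 2.04 ± 0.28 on the log2 scale (edgeR adjusted p = 0.00241) or 1.65 (edgeR adjusted p = 6.72e-05) without replicate 3.

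Col10a1, the collagen of hypertrophic cartilage, held 87.0, 39.7 and 85.0 normalized counts in Pa1F/F and 13.7, 24.8 and 4.01 in Amh-pa1-/-. It fell by 2.33 ± 0.57 on the log2 scale (edgeR adjusted p = 0.0199). Without Pa1F/F replicate 1, Pa1F/F replicate 3 or Amh-pa1-/- replicate 1 the edgeR adjusted p was 0.0704, 0.0668 or 0.0679 at -2.14, -2.18 or -2.31, and without Amh-pa1-/- replicate 2 the change was -2.96. The edgeR adjusted p was 0.0627 with the replicate number as a block and 0.119 with the close pairs of libraries summed. All 7105 bases of Col10a1 lie inside Nt5dc1, which runs on the opposite strand and held 306 to 383 raw counts in the 6 libraries. Since the strand setting of the counting is not given, the counts of Col10a1 are uncertain. Col7a1, the anchoring fibril chain under skin, overlapped (143, 221 and 141 against 107, 81.1 and 409; 0.25 ± 0.60, edgeR adjusted p = 0.776), and was lower by the adjusted p alone without Amh-pa1-/- replicate 3 (-0.83, edgeR adjusted p = 0.0328).

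The 7 chains left out of the test by their low counts were Col26a1, Col13a1, Col2a1, Col24a1, Col6a5, Col9a1 and Col19a1. Col26a1, first described in testis and ovary, held 23, 7 and 21 raw counts in Pa1F/F and 1, 1 and 1 in Amh-pa1-/-, 51 against 3 in sum. The ratio of control to knockout was 16.0 after scaling to library size (95% exact interval 5.18 to 80.2, counting error only), and edgeR without the filter on low counts gave -3.83 (adjusted p = 0.00218). The other 6 held at most 13 raw counts in any library. A count of 0 allows up to 3 counts, which is a CPM of 0.185 to 0.227 in these libraries.

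Ratios of partner chains within a library do not depend on the scaling of libraries. They were computed for 9 pairs as log2 ratios with 0.5 added to each count and compared by an exact two-sided permutation test of 3 against 3. In 5 pairs the genotypes did not overlap, where the normalized counts of 52.4% of all single genes did not, each at an exact permutation p of 0.1, the smallest this test can give, or 0.18 after Benjamini-Hochberg adjustment over the 9 pairs. Col4a5 over Col4a6 changed most, from 1.77, 1.69 and 1.63 in Pa1F/F to 2.86, 2.76 and 3.05 in Amh-pa1-/-, a difference of 1.19 between the means. Each Amh-pa1-/- library was above each control by more than the range of either group. Col4a1 over Col4a2 went from 0.26 ± 0.07 to 0.51 ± 0.07 (SD, n = 3 each), with Col4a2 further below its controls than Col4a1.

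The ratio of Col1a1 to Col1a2, which join at 2 to 1 in type I collagen, had a narrow spread in both genotypes, at -0.53, -0.50 and -0.51 in Pa1F/F and -0.29, -0.31 and -0.31 in Amh-pa1-/-. The levels of both chains differed by 1.89-fold and 1.91-fold between Amh-pa1-/- replicate 3 and the mean of its mates, but the ratio of replicate 3 was that of its mates. The same held for Col6a1 over Col6a3, at -1.32, -1.42 and -1.23 in Pa1F/F and -2.08, -2.16 and -2.14 in Amh-pa1-/- (difference -0.80), where the chains themselves differed by 4.06-fold and 4.12-fold. Col6a1 over Col6a2 was lower as well (0.93 ± 0.15 against 0.51 ± 0.17). In the other 4 pairs the groups overlapped: Col4a3 over Col4a4 (difference -0.12, exact p = 0.6), Col5a1 over Col5a2 (0.32, exact p = 0.5), Col8a1 over Col8a2 (0.65, exact p = 0.6) and Col9a2 over Col9a3 (-0.61, exact p = 0.5), each with an adjusted p of 0.6.

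**Figure D5:**
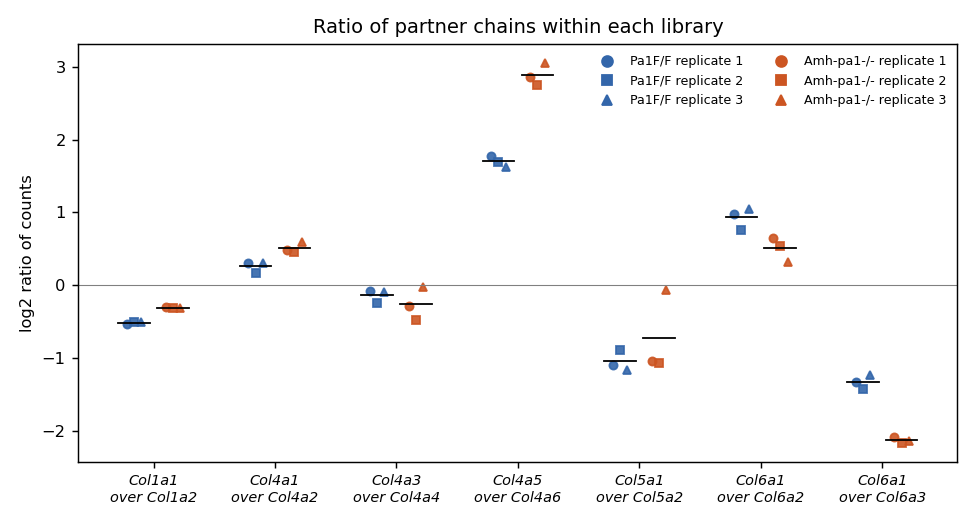
Log2 ratio of the counts of partner chains in each library for 7 pairs (vertical axis, symbols for replicates, bars for group means). Col4a5 over Col4a6 is highest, with its Amh-pa1-/- points (mean 2.89) all above its Pa1F/F points, and the 3 Amh-pa1-/- points of Col1a1 over Col1a2 and of Col6a1 over Col6a3 nearly coincide.

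Genes that act on collagen after its transcription were taken from 4 lists of 56 genes, of which 55 are in the table and 48 were tested. Of these, 4 fell and 3 rose past both thresholds (14.6%, beside 12% of all tested genes), and the median log2 fold change was 0.00. By the adjusted p alone 20 passed (41.7%, beside 35.3% of all tested genes), 14 lower and 6 higher, where 17.1% and 18.2% of all genes did. Without Amh-pa1-/- replicate 3 the number past both thresholds was 11 of 49 (22.4%, beside 13.5% of genes), with Bmp1, P3h3, Pcolce2 and Rcn3 added.

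Among 22 tested genes of chain modification and folding, P3h2 fell and Colgalt1 rose, where 6.56% and 5.44% of all tested genes did. P3h2, a prolyl 3-hydroxylase that acts on type IV collagen, held 140.5, 138 and 109 normalized counts in Pa1F/F and 25.4, 28.2 and 46.1 in Amh-pa1-/-. It was below the controls in every library (-1.96 ± 0.26, edgeR adjusted p = 0.00202). Colgalt1, which adds galactose to hydroxylysine, held 2911, 2785 and 2842 against 5832, 5867 and 6749 (1.11 ± 0.07, edgeR adjusted p = 0.000177), again without overlap. By the adjusted p alone 7 more were lower, where 17.1% of all tested genes were. Among these 7 were the prolyl 4-hydroxylase subunits P4ha2 (-0.57) and P4hb (-0.37) and the folding partners Crtap (-0.60) and Ppib (-0.29). The lysyl hydroxylases Plod1, Plod2 and Plod3 lay between 0.01 and 0.16 and did not pass, and neither did the collagen chaperone Serpinh1 (-0.48, edgeR adjusted p = 0.0856).

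Of 13 tested genes of propeptide cleavage and cross-linking, 2 rose and none fell past both thresholds, where 5.44% and 6.56% of all tested genes did. Loxl4, a lysyl oxidase that cross-links collagen, held 161, 223 and 172 normalized counts in Pa1F/F and 919, 864 and 894 in Amh-pa1-/-. The groups were widely separate (2.27 ± 0.13, edgeR adjusted p = 0.000119), while Lox itself was level (0.00 ± 0.09, edgeR adjusted p = 0.997). Tll1, a protease of the Bmp1 family, held 10.9, 10.7 and 13.6 against 36.1, 28.2 and 40.1 (1.57 ± 0.25, edgeR adjusted p = 0.00433). Bmp1, which removes the C-terminal propeptide, was lower by the adjusted p alone (4068, 5614 and 4215 against 2146, 2280.1 and 2654; -0.97 ± 0.14, edgeR adjusted p = 0.0030), and so was Adamts2, which removes the N-terminal one (-0.62, edgeR adjusted p = 0.0196).

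No tested receptor for collagen (8 genes) passed both thresholds, where 12% of all tested genes did. Itgb1, the beta subunit shared by the collagen-binding integrins, and Itga11, a partner of it, were higher by the adjusted p alone (0.52 and 0.50, edgeR adjusted p = 0.00345 and 0.026), and the receptor kinases Ddr1 and Ddr2 did not pass (0.07 and -0.26). Of 5 tested genes of collagen breakdown, 3 fell, where 6.56% of all tested genes did. Mmp2, a gelatinase that also cuts type IV collagen, held 3637, 4701 and 3499 normalized counts in Pa1F/F and 1046, 969 and 593 in Amh-pa1-/- (-2.18 ± 0.23, edgeR adjusted p = 0.000845). Fap, a protease of activated fibroblasts, held 112, 114 and 98.6 against 22.5, 21.4 and 8.02 (-2.64 ± 0.34, edgeR adjusted p = 0.00181). It reached the filter on low counts in all 3 Pa1F/F libraries but in only 2 of the Amh-pa1-/- libraries. Ctsk, the collagen-cutting cathepsin, held 1189, 1542 and 1217 against 539.8, 510.3 and 543 (-1.31 ± 0.11, edgeR adjusted p = 0.000441). In Mmp2 and Fap, Amh-pa1-/- replicate 3 was the lowest library of all, unlike in the type VI chains. Mmp14, the membrane-bound protease that activates Mmp2, did not pass (0.07 ± 0.09, edgeR adjusted p = 0.58).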

How the data were processed

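RNA-seq libraries of cultured Sertoli cells were made by the authors with the NEBNext Ultra kit, and the reads were aligned to GRCm38 with HISAT2 2.1.0. The deposited values are raw counts of reads per gene made with HTSeq 0.6.0, without normalization, and the strand setting of the counting is not given in the sources used here. The deposited table also holds the authors' own comparison (fold changes, p-values and a mean signal), which was not used. Groups were taken from the labels, which give 3 libraries of each genotype.

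Counts were filtered with filterByExpr of edgeR 4.0.16 (minimum count 10, minimum total 15), scaled by TMM (factors 0.990 to 1.03) and fitted in R 4.3.3 for its quasi-likelihood F-test, with Benjamini-Hochberg adjustment over 14919 genes. DEGseq, which the methods of the study name, was not used here, and its thresholds (adjusted p under 0.05, absolute log2 fold change of at least 1) were kept. Standard errors are the absolute log2 fold change over the square root of F. Alternatives were other scalings, DESeq2 1.42.0, voom of limma 3.58.1, other filters and thresholds, a replicate block and fits that left out libraries. The steps were tested on simulated data. Exon lengths came from GENCODE by gene ID and matched all 44 chains. Library totals were 13203757 to 16231443 counts. Intervals and floors cover counting error only, since the reads carry no molecular identifiers. The table holds no batch, and all count columns were used.

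The chains named were those past both thresholds, the partners of these in 9 listed pairs and the 12 with the highest mean level per length. Chains and pathway genes named beyond them were chosen after their values were seen. The members, lists and pairs were chosen with earlier results of these data known. Col21a1, a FACIT chain of the class lists, was not analysed here.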

Additional observations from a re-analysis of the deposited data

How the results depend on the processing

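As reported, 10 chains were called (5 lower, 5 higher; 12% of genes). With other thresholds the number was 4 (1 lower, 3 higher) when tested against a log2 fold change of 1 by glmTreat (where 3.61% of all genes were called). It was 21 (14 lower) without a fold threshold (35.3% of genes). At least 10 counts in every library gave 7 (3 lower, 4 higher), with Col10a1, Col14a1 and Col25a1 not tested (9.53% of genes). Leaving out 1 library gave 6 to 17 chains, 2 to 12 lower and 4 to 5 higher, with the highest count without Amh-pa1-/- replicate 3 (13.5% of genes) and the lowest without Pa1F/F replicate 3 (6, where Col10a1, Col14a1, Col15a1 and Col9a3 were lost, with 9.78% of genes), while the share of all genes called was 9.65% to 13.5% over the 6 fits. Without Pa1F/F replicate 2 and Amh-pa1-/- replicate 3 together it was 18 (13 lower; 14.8% of genes), and with the close pairs of libraries summed 6 (2 lower; 5.53% of genes), with Col10a1, Col14a1, Col15a1 and Col9a3 lost. Pathway genes called were 4 (1 higher) by glmTreat, 20 (14 lower, 6 higher) without a fold threshold and 7 to 11 (4 to 7 lower, 3 to 4 higher) leaving out 1 library, beside 7. Col12a1, Col18a1 and Col28a1 were called in 16 of 16 alternatives and Col25a1 in 15 of 15, Col4a2 and Col8a1 in 15 of 16, Col9a3 in 11 and Col15a1 in 10 of 16, and Col14a1 in 10 and Col10a1 in 9 of 15. Other scalings and DESeq2's Wald test gave 11 chains, with Col17a1 added (11.9% to 12% of genes), and voom 10 (11.8% of genes).

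Signs turned for Col5a1 to 0.10 without Pa1F/F replicate 2 and 0.15 with close pairs summed, and it ranged from -0.63 to 0.22 leaving out 1 library, with 0.20 and 0.22 without Amh-pa1-/- replicates 1 and 2. Col6a3 turned to 0.054 and 0.053 in the same fits (range -1.31 to 0.054) and to 0.078 with close pairs summed. Col8a2 turned to -0.24 without Amh-pa1-/- replicate 3 (range -0.24 to 1.53) and -0.54 without Pa1F/F replicate 2 as well. The difference in ratio of Col5a1 over Col5a2 ranged from -0.0078 (without Amh-pa1-/- replicate 3) to 0.50, and that of Col8a1 over Col8a2 from -0.053 (without Amh-pa1-/- replicate 1) to 1.46. None of these was called as reported. The cause was not tested.

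The labels do not say whether libraries of the same replicate number were prepared together. The deviations of same-numbered libraries from their group means correlated at 0.11, -0.16 and -0.18, and not every library correlated best with its own number. With 3 libraries of each genotype, these correlations cannot decide whether the libraries were paired. With the replicate number as a block, 8 chains were called (Col10a1 and Col9a3 lost) and 7 pathway genes, beside 10.4% of all genes. The 7 untested chains held too few counts to pass the filter.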
